A study of Homo sapiens with 22 samples.

Results

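The dividing cells of D3 were those with at least 100 CPM of MKI67 and TOP2A together, where CPM is the number of unique molecular identifiers (UMIs) of a gene scaled to a common total of UMIs per cell. They were chosen from the kept cells of the D3 pools A and B, which had at least 1000 detected genes and at most 10% of their UMIs on mitochondrial genes. The rule found 3065 cells among 6660 kept cells of D3 and 41975 kept cells of the series. Pool A held 657 of these cells among 1881, and pool B held 2408 among 4779. They were set against the 1499 kept D3 cells without a UMI of either gene, 600 in pool A and 899 in pool B, called non-dividing here. The remaining 2096 cells, which lay between the classes, were left out of the comparison.

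All cells were BJ cells, an established line of human foreskin fibroblasts, cultured in microfluidic channels under hypoxia and reprogrammed by daily transfections of non-modified mRNAs for POU5F1, SOX2, KLF4, MYC, LIN28 and NANOG. The cells of D0 were not transfected. Transfections ran from day 1 to day 8, so the cells of D3 and D5 were taken while they were under way. Each day has 2 pools, each of them joined from the cells of 4 chips and sequenced with a droplet 3′ kit, and the pools are the replicates (n = 2). The pool is a block in the fit, so every test measures how the class difference varies between pools of 1 cell line. That spread is estimated over the pools of D0, D3, D5 and D7 together.

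MKI67 codes for Ki-67, a protein that coats mitotic chromosomes, and TOP2A for topoisomerase II alpha, which untangles DNA before chromosomes part. Both RNAs build up from S phase, in which DNA is copied, to G2 and mitosis, and are low in G1 and in resting cells. Fibroblasts that leave the cycle carry CDK inhibitors such as p21 and keep making collagen, and proliferation is an early feature of cells that receive reprogramming factors.

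The members are deep in sequence and the pools differ. Median depth over all kept cells was 46201 UMIs in pool A of D3 and 28763 in pool B. Dividing cells held a median of 50517 UMIs and 6030 genes in pool A, against 40457.5 UMIs and 5342.5 genes in non-dividing cells. In pool B the medians were 31704 UMIs and 4869 genes against 22415 UMIs and 3985 genes. A cell at the same number of UMIs of a gene therefore has a lower CPM of it when it divides, and CPM cannot tell a lower share of the RNA from less RNA of that gene per cell. NME2 stood at 6.40 CPM in the dividing cells of pool A and at 191.9 CPM in those of pool B, a gap between the pools, which are 1 library each. LIN28A, one of the transfected factors, was also far higher in pool B. Between them the D3 pools shared 15 cell barcodes. Fibroblast markers, all 10 of them with UMIs, summed to 10193 and 8892 CPM in the dividing cells of pools A and B and to 18527 and 14869 CPM in the non-dividing cells. The markers of pluripotent and epithelial cells summed to 263 and 292 CPM in dividing cells and to 542 and 353 CPM in non-dividing cells, with CDH1 and ESRP1 at 0 in dividing cells of both pools. Markers of endothelial, blood, keratinocyte and neural cells summed to 19.6 and 12.6 CPM in dividing and 5.47 and 8.69 CPM in non-dividing cells. HBA1, an alpha globin with a near-identical copy that makes its counts uncertain, gave 17.6 and 10.3 CPM of this in dividing and 3.42 and 6.14 CPM in non-dividing cells, while KRT5 and SOX10 were at 0 in dividing cells of both pools. The part of these other markers in the results below was not tested.

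The values of the rule genes describe how the members were selected. Of the dividing cells, 578 (88.0%) in pool A and 2106 (87.5%) in pool B had UMIs of both genes. MKI67 alone was seen in 75 (11.4%) and 238 (9.88%) cells, and TOP2A alone in 4 (0.609%) and 64 (2.66%). The median of the summed level was 198 CPM in pool A and 258 CPM in pool B. On D0 the same rule gave medians of 391 and 372 CPM, so the members of D3 carried less of both RNAs per UMI than their D0 counterparts. For MKI67 the medians were 125 and 153 CPM on D3 and 223 and 222 CPM on D0. For TOP2A they were 74.7 and 103 CPM on D3 and 153 and 128 CPM on D0. Members had a median of 10 UMIs of both genes in pool A and 8 in pool B, and no cell of pool A and 11 cells (0.457%) of pool B were members by 1 UMI. Just inside the limit, at 100 to 110 CPM, lay 51 cells of pool A and 103 of pool B. Just outside, at 90 to 100 CPM, lay 37 and 116 cells. Their medians over the genes of the published S phase list, 2636 inside and 3033 CPM outside in pool A, and 1592 and 1631 CPM in pool B, show that the limit cuts through a continuous range.

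By the rule, the share of dividing cells was larger in both pools of D3 than in the pools of D0 and D5. The share of dividing cells was 34.9% (95% exact binomial interval 32.8 to 37.1%) in pool A of D3 and 50.4% (49.0 to 51.8%) in pool B, a mean of 42.7% ± 10.9 (SD, n = 2). On D0 the shares were 20.2 and 21.0%. On D5 they were 23.3 and 23.8%, from 606 dividing cells. The intervals cover counting error only, and the D3 pools lay farther apart than the pools of D0 or D5. In pools of other days the share was 50.1 and 29.5% on D7, 25.4 and 32.8% on D9, 45.1 and 37.9% on D11, 29.3 and 56.9% on D13 and 80.9 and 70.2% on D15. With every cell thinned to 10000 UMIs, where 100 CPM is 1 UMI, the shares were 43.2 and 62.2% on D3, 29.5 and 30.1% on D0 and 31.3 and 35.0% on D5. Both D3 pools thus lay above all 4 pools of D0 and D5 at equal depth. At a limit of 200 CPM the shares were 17.3 and 32.7% on D3, 14.9 and 15.5% on D0 and 14.5 and 15.0% on D5. Pool A of D3 was then only slightly higher, and its interval (15.6 to 19.1%) overlapped that of D0 pool B (14.5 to 16.6%). An exact two-sided permutation test of 2 pools against 2 cannot give a p below 0.333, and none is given.

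**Figure D1:**
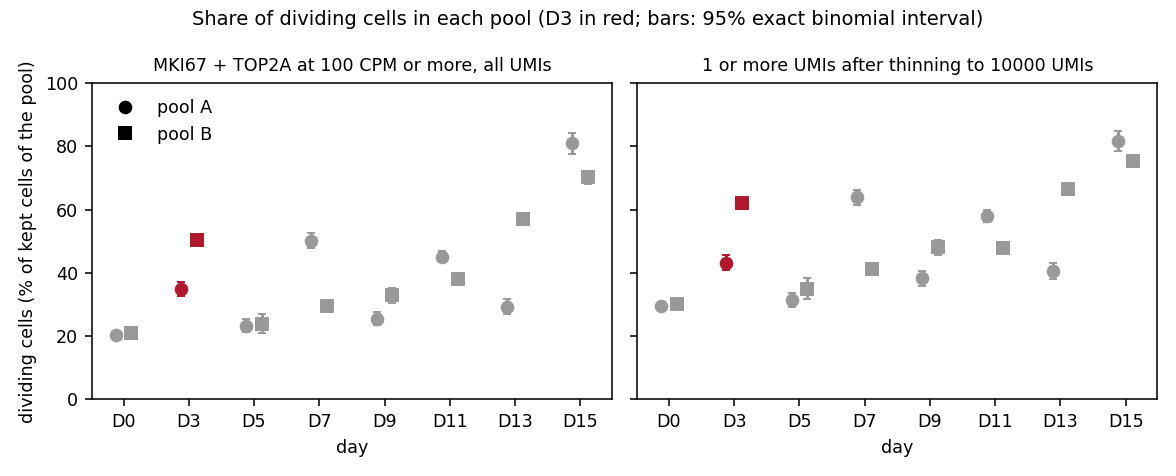
Share of dividing cells (% of kept cells, vertical axis) in pools A (circles) and B (squares) of each day (horizontal axis), at 100 CPM over all UMIs on the left and with 1 or more UMIs after thinning to 10000 UMIs on the right, with bars for the 95% exact binomial interval. The D3 pools (red) sit at 34.9 and 50.4% on the left, above the pools of D0 and D5 and below those of D15.

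Most members carried raised RNA of genes of both S phase and mitosis. For each cell the CPM of the 43 genes of the published S list were summed, and so were those of the 52 genes of the published G2M list that remain without MKI67 and TOP2A. These genes belong to the same programme as the rule genes, so their sums describe the members and are not tested. The median S sum was 2624 CPM in the dividing cells of pool A, 1687 CPM in the cells between the classes and 485 CPM in non-dividing cells. In pool B these medians were 2285, 797 and 637 CPM. The median G2M sum was 6185, 3329 and 1334 CPM in pool A and 5301, 2042 and 1706 CPM in pool B, in the same order of classes. Cells between the classes thus lay midway in pool A and close to non-dividing cells in pool B. On D0 the dividing cells had lower S sums, with medians of 1342 and 1362 CPM, and slightly higher G2M sums, with medians of 6917 and 6859 CPM.

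Taking the 90th percentile of the non-dividing cells of the pool as a limit on each list, 84.6% of the members in pool A and 83.1% in pool B were above both limits. Another 14.9 and 9.22% were above the G2M limit only, while 0.304 and 2.24% were above the S limit only. The remaining 0.152 and 5.44% were above neither, 1 cell in pool A and 131 cells in pool B. Cells that were above the G2M limit only held, over their summed UMIs, 308 CPM of CCNB1 in pool A and 167 CPM in pool B. CCNB1 is cyclin B1, the partner of CDK1 that drives entry into mitosis. Cells above both limits held 251 and 157 CPM. Over the members, the S sum and the G2M sum had a Spearman correlation of -0.278 in pool A (657 cells) and 0.145 in pool B (2408 cells), against 0.590 and 0.598 in the dividing cells of D0. Cells of a pool share a library, and both sums share the UMI total of the cell, so these values are given as a description.

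**Figure D2:**
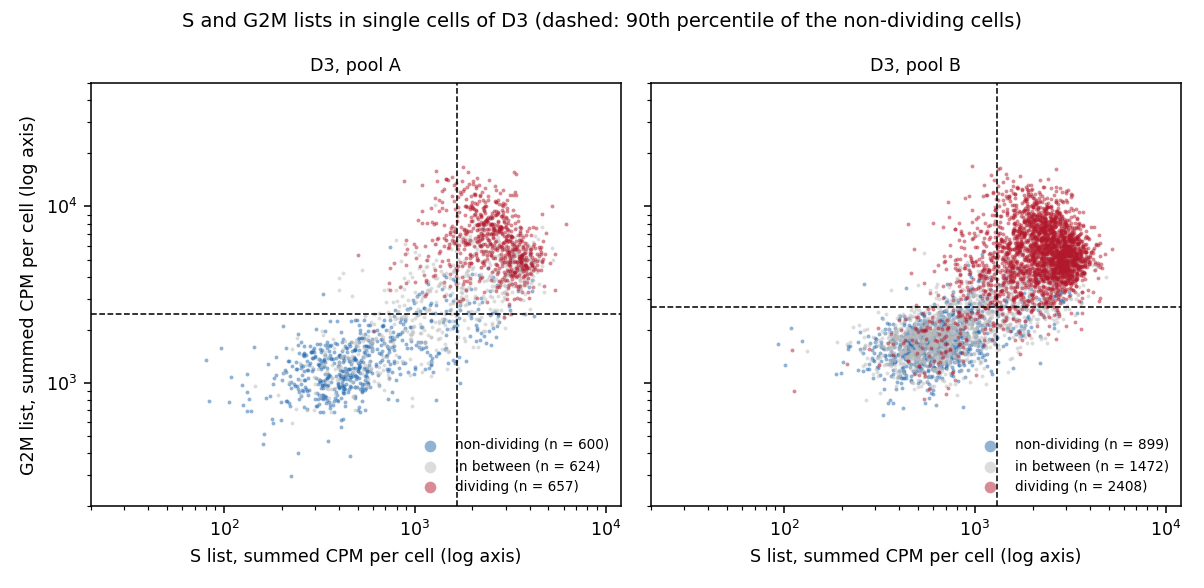
Each point is a kept cell of D3, with the summed CPM of the S list on the horizontal and of the G2M list on the vertical log axis, for pool A on the left and pool B on the right. Dividing cells (red) fill the upper right field beyond both dashed limits, 84.6% of them in pool A and 83.1% in pool B, non-dividing cells (blue) lie at the lower left, and 1 cell falls outside the axes.

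With all cells thinned to 10000 UMIs, the genes of single phases were seen in many more dividing than non-dividing cells. CDK1 had a UMI in 54.5% of dividing and 6.17% of non-dividing cells of pool A, and in 27.8 and 4.77% in pool B. Unthinned, its shares were 80.7 and 21.0% in pool A and 54.9 and 13.7% in pool B. CCNB1 had a UMI in 80.2 against 20.3% of cells in pool A and in 68.2 against 21.5% in pool B. PCNA, the clamp of the replication fork, was seen in 80.5 against 39.5% and in 70.6 against 38.5%. PTPRC, a leukocyte gene that fibroblasts should lack, had a UMI in at most 0.503% of either class of either pool at this depth. The thinning left out 20 dividing and 18 non-dividing cells of pool B, which were shallower, and no cell of pool A.

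Class differences were computed from UMIs summed per pool and class, 83077508 UMIs at most and 21176850 at least on D3, with edgeR's quasi-likelihood test, the pool as a block and Benjamini-Hochberg adjustment over 12047 genes. A gene was called at an adjusted p below 0.01 and a log2 difference beyond 0.25. Of all genes tested, 2898 (24.1%) were called higher in dividing cells of D3 and 3419 (28.4%) lower, 6317 (52.4%) in either direction, with a median log2 difference of -0.06, and 69.8% had an unadjusted p under 0.05. A gene list therefore has to be read against a background in which more than every other gene is called. Without the replicate block the count was 1145. With DESeq2 size factors 3228 genes were called higher and 3082 lower, so the excess of lower calls turned round with the scaling. Levels are given below as TMM-scaled CPM of the class sums, and differences as log2 of dividing over non-dividing with an approximate standard error (SE). The SE was not fitted directly. It is the absolute log2 difference divided by the square root of the F statistic of its test, and is only a rough guide to the spread. Lists of genes were chosen with earlier results of these data known.

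The genes that carry out replication and mitosis were higher in dividing cells almost without exception, which the choice of the cells by MKI67 and TOP2A entails, so no test is given for them. Of the S list, 42 genes were measured, all 42 were higher in dividing cells in both pools, and their median difference was 1.62. RAD51AP1, a DNA repair gene, stood at 32.9 CPM in dividing and 3.60 CPM in non-dividing cells of pool A and at 27.6 and 5.45 CPM in pool B (log2 2.76, SE 0.17). CLSPN, claspin of the replication checkpoint, had the levels 76.3 and 12.9 CPM in pool A and 88.9 and 18.6 CPM in pool B (2.41, SE 0.16). All 52 genes of the G2M list were higher in both pools, with a median of 2.93. KIF2C, a kinesin that takes microtubules apart at centromeres, was at 42.2 and 1.28 CPM in pool A and 35.6 and 4.12 CPM in pool B (3.93, SE 0.28). GTSE1, a microtubule protein of G2 and mitosis, was at 71.5 and 3.12 CPM in pool A and 106.0 and 11.7 CPM in pool B (3.69, SE 0.27). For all 4 genes both dividing sums lay above both non-dividing sums.

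The start regions of these genes are shown because mitotic genes move together and many are known to be controlled by a CHR element next to a CCAAT box. RefSeq start regions (GRCh38.p14) were searched over the 250 bases before the start, on both strands, for TTTGAA or TTCGAA (CHR), for CCAAT, and for TTTGGCGC, TTTCCCGC, TTTCGCGC or TTTGCCGC (E2F). Of the 52 genes of the G2M list, 43 had such a region. A CHR was found in 53.5% of them against 14.3% of all 35116 regions, CCAAT in 67.4% against 32.0%, and both in 46.5% against 5.05%. E2F letters were found in 4.65% against 2.79%. For the S list only 32 of 43 genes had a region, under the 80% needed, so that its check is void. The 3 regions below are of KIF2C (chr1:44739587-44739836), GTSE1 (chr22:46296620-46296869) and RAD51AP1 (chr12:4538640-4538889), all on the plus strand and ending at the base before the start, with the letters found in capitals. GTSE1 has a CHR on the minus strand 26 bases and a CCAAT 16 bases before the start, RAD51AP1 has a CCAAT on the minus strand 70 bases before it, and KIF2C has none of these letters in the window.
KIF2C: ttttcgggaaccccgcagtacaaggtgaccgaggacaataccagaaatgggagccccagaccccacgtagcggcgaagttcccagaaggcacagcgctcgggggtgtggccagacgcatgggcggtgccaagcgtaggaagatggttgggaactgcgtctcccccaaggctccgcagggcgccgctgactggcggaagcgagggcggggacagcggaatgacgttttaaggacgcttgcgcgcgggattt
GTSE1: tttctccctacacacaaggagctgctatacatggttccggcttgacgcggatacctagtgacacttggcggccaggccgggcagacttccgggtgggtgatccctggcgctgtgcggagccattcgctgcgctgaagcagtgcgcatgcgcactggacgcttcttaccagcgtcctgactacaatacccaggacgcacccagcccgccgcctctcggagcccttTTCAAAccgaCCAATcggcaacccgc
RAD51AP1: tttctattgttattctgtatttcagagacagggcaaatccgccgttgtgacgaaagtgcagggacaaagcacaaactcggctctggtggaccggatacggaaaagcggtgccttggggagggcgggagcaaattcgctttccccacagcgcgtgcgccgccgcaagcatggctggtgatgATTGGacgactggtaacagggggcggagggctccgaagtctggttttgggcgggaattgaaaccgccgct

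Most cyclins and their kinases were higher in dividing cells, those of late phases among them, and cyclin D1 was lower. CDK1, the kinase of mitosis, was at 125 CPM in dividing and 6.81 CPM in non-dividing cells of pool A and at 45.4 and 6.67 CPM in pool B (3.59, SE 0.22). CCNA2, cyclin A2 of S and G2, was at 106 and 6.89 CPM in pool A and 35.5 and 4.63 CPM in pool B (3.58, SE 0.19). Both were thus far higher in pool A among dividing cells, with similar levels in non-dividing cells. CCND1, cyclin D1 of G1, was at 364 and 540 CPM in pool A and at 667 and 981 CPM in pool B (-0.56, SE 0.06; named beyond the naming rule). CCNE1, a cyclin that opens S phase, had a difference of 1.47 (SE 0.12). Of the 12 genes of this list, 9 (75%) were past the limits and higher, beside 24.1% of all genes, among them CCND3, CDK2 and CDK4. Past the limits and lower was 1 (8.33%), beside 28.4% of all genes, and CDK6 and CCND2 were not past the limits. The choice of the cells bears on this list too, so these counts are a description. The lowest difference of the list, -1.42, was in a gene that was not called. Among 15 regulators of the cycle, 14 had a difference above 0, with a median of 1.15. MYBL2, or B-MYB, which with LIN9 switches on mitotic genes, was at 65.8 and 13.01 CPM in pool A and 45.4 and 11.2 CPM in pool B (2.19, SE 0.16). FOXM1, another activator of G2 genes, was at 36.6 and 8.97 CPM and at 32.8 and 12.2 CPM (1.73, SE 0.16).

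The parts of the mitotic machinery were higher together. All 20 genes of the kinetochore and spindle checkpoint were higher in both pools, with a median of 2.96, among them CENPA, the histone of the centromere, at 3.60 (SE 0.27), and NUF2 of the NDC80 complex at 3.56 (SE 0.20). Of 20 kinesin and cytokinesis genes 19 were higher, with a median of 2.81, led by KIF2C and by the mitotic kinase PLK1 at 3.55 (SE 0.32). The exception was CIT, citron kinase, at -0.60 (SE 0.07). All 19 cohesin and condensin genes were higher, with a median of 1.77, among them the condensin subunit NCAPH at 3.47 (SE 0.24) and the cohesin protector SGOL1 at 3.34 (SE 0.23). The histone and high mobility group genes were mixed, with 12 of 20 (60%) past the limits and higher, 3 (15%) lower and a median of 0.81. Over all genes 24.1% were called higher and 28.4% lower. HMGB2, a chromatin protein of dividing cells, was at 522 and 50.5 CPM in pool A and 394 and 62.3 CPM in pool B (3.02, SE 0.19). HIST1H4C, a histone H4 gene of S phase whose mRNA mostly lacks a poly(A) tail, was at 925 and 96.8 CPM in pool A and 2674 and 472 CPM in pool B (2.87, SE 0.30). Its level in pool B was far above that in pool A in both classes. The histones lower in dividing cells were H1F0 and HIST1H2AC, and HMGA2 was lower as well.

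Most enzymes that make nucleotides rose in dividing cells. Of 22 nucleotide synthesis genes 21 were called higher, against 24.1% of all genes, and IMPDH2 was not called at 0.16. TYMS, RRM1 and RRM2 are also on the S list, so the choice of the cells entails part of this count, which is a description. RRM2, the small subunit of ribonucleotide reductase, stood at 183 and 24.99 CPM in pool A and 103 and 28.8 CPM in pool B (2.37, SE 0.21). MTHFD2, an enzyme of mitochondrial folate metabolism that is not a gene of the cycle lists, was at 109 and 49.5 CPM in pool A and 61.5 and 30.3 CPM in pool B (1.09, SE 0.08, adjusted p = 2.8e-07). SLC7A5, a transporter of large neutral amino acids, was at 31.1 and 9.85 CPM in pool A and 21.8 and 8.09 CPM in pool B (1.55, SE 0.16, adjusted p = 5.8e-06). Of the 20 genes of serine synthesis and the ATF4 stress response, 8 (40%) were called higher, against 24.1% of all genes, and 5 (25%) lower, against 28.4%, with a median of 0.19.

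Genes of the nucleolus and of ribosome assembly were higher in dividing cells. A list of 40 such genes was drawn up after the genes that rose most had been seen, so it is described without a test. All 40 were higher in both pools, 38 (95%) of them past the limits beside 24.1% of all genes, and their median was 1.03. LYAR, a nucleolar regulator of ribosomal RNA genes, was at 164 and 36.3 CPM in pool A and 217 and 61.1 CPM in pool B (1.99, SE 0.10). DDX21, a nucleolar helicase, was at 248 and 61.3 CPM in pool A and 394 and 123 CPM in pool B (1.84, SE 0.09). NCL, nucleolin, was at 826 and 315 CPM in pool A and 2036 and 905 CPM in pool B (1.28, SE 0.09). Of the 90 genes of ribosomal proteins, whose many copies make their counts uncertain, 3 (3.33%) were called higher and 6 (6.67%) lower, with a median of -0.07. Both shares lay far below the 24.1 and 28.4% of all genes. Among genes outside the lists that the naming rule used, which did not include the list of 40 genes, the rule named the 6 largest rises, of which LYAR was one. The others belong to division or replication, namely ASPM of the spindle pole (3.46, SE 0.19), ORC6 of the origin complex (2.36, SE 0.17), the ubiquitin-conjugating enzymes UBE2S (2.32, SE 0.20) and UBE2T (2.26, SE 0.16), and the chromatin assembly subunit CHAF1A (2.23, SE 0.16).

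**Figure D3:**
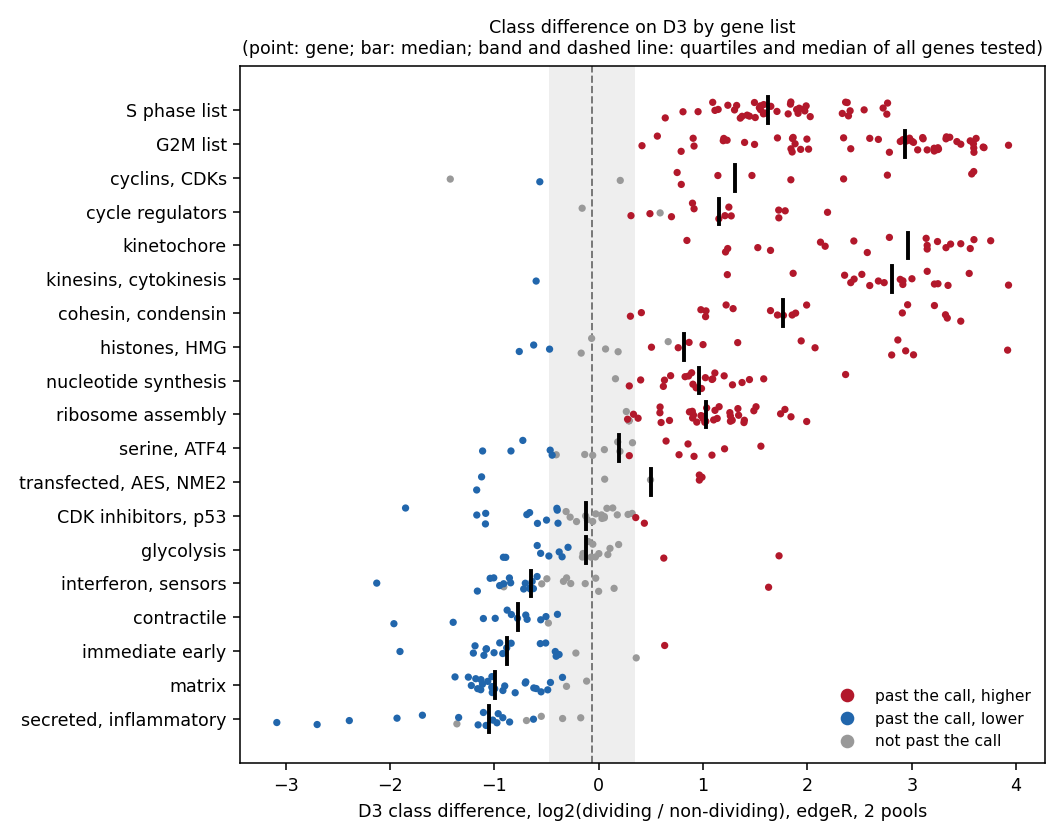
Each point is a gene and its horizontal position is the D3 class difference (log2 of dividing over non-dividing cells, edgeR, n = 2 pools), grouped by list on the vertical axis, with a black bar for the median of the list. The grey band and dashed line are the quartiles and the median (-0.06) of all genes tested, against which the G2M list has a median of 2.93 and the matrix list one of -0.996.

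The fibroblast programme was lower in dividing cells. Of 27 collagen and matrix genes none was called higher and 25 were called lower, against 28.4% of all genes, with a median of -0.996. LUM, the collagen-binding proteoglycan lumican (chr12:91102629-91111494, GRCh38), fell from 572 CPM in non-dividing to 222 CPM in dividing cells of pool A and from 303 to 116 CPM in pool B (-1.38, SE 0.06, adjusted p = 4.8e-08). COL5A1, a chain of type V collagen, was at 10.2 and 27.9 CPM in pool A and 15.0 and 31.8 CPM in pool B (-1.25, SE 0.09, adjusted p = 2.8e-07). COL1A1 of type I collagen, named beyond the rule, was at 333 and 804 CPM and at 403 and 799 CPM (-1.13, SE 0.08). ELN and VCAN were not called, at -0.12 and -0.31. Set against depth-matched non-dividing cells, 240 in pool A and 80 in pool B, the median of the matrix list was -0.76. Of the 10 fibroblast markers 9 were called lower and THY1 was not, at 0.09. COL1A1, COL1A2, COL3A1, LUM and DCN are in this list and in the matrix list, so the counts of these lists overlap. PDGFRB, the receptor for PDGF-BB, was at 15.6 and 46.4 CPM in pool A and 28.7 and 71.1 CPM in pool B (-1.42, SE 0.07, adjusted p = 5.8e-08). The summed level of the 10 markers, 10193 and 8892 CPM in dividing cells, was far above the 263 and 292 CPM of the pluripotent and epithelial markers.

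Of 13 contractile genes 12 were called lower, against 28.4% of all genes, and none higher, with a median of -0.78. TGFB1I1, a focal adhesion protein also called HIC-5, was at 81.7 and 187 CPM in pool A and 56.8 and 115 CPM in pool B (-1.10, SE 0.06, adjusted p = 6.8e-08). MYL9, a myosin regulatory light chain, was at 233 and 522 CPM in pool A and 203 and 358 CPM in pool B (-0.99, SE 0.07, adjusted p = 2.4e-07). Among 19 immediate early genes, which code for transcription factors and feedback regulators induced within minutes of a stimulus, 16 were called lower, against the same 28.4%, and 1, FOSL1, higher, with a median of -0.88. JUNB was at 50.9 and 123 CPM in pool A and 23.4 and 49.8 CPM in pool B (-1.18, SE 0.06, adjusted p = 8.2e-08). IER3, a stress response gene, was at 57.7 and 136 CPM in pool A and 82.6 and 157 CPM in pool B (-1.08, SE 0.13, adjusted p = 2.2e-05). In each of these genes the dividing class was the lower one in both pools.

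Of 20 tested genes of the inflammatory list, most of which code for secreted factors, 15 were called lower, against 28.4% of all genes, and none higher, with a median of -1.05. CCL2, the monocyte attractant MCP-1 (chr17:34255274-34257208, GRCh38), was at 13.5 and 64.4 CPM in pool A and 15.5 and 48.2 CPM in pool B (-1.93, SE 0.13, adjusted p = 2.1e-07). CXCL1, a neutrophil attractant, was at 33.2 and 133 CPM in pool A and 31.3 and 81.6 CPM in pool B (-1.69, SE 0.20, adjusted p = 1.5e-05). At 10000 UMIs per cell CCL2 had a UMI in 10.5 and 12.9% of dividing and in 27.0 and 23.3% of non-dividing cells. No background share of free RNA was measured for it, so these are shares of cells with a UMI and not of cells that express it. For CXCL8, without thinning, 5.02 and 3.61% of dividing cells and 6.67 and 5.34% of non-dividing cells had a UMI. At 10000 UMIs per cell these shares were 1.07 and 1.17% of dividing and 4.67 and 3.06% of non-dividing cells. The 10 genes of this list that were detected in under 5% of cells, IL6 and CXCL2 among them, had no test.

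Of 26 interferon-stimulated genes and RNA sensors tested, 15 (57.7%) were called lower in dividing cells, against 28.4% of all genes, and 1 was called higher, with a median of -0.65, which was -0.36 with depth-matched non-dividing cells. IFI6 was at 40.2 and 64.5 CPM in pool A and 41.6 and 70.1 CPM in pool B (-0.72, SE 0.07, adjusted p = 2.3e-06). ISG15, a ubiquitin-like modifier, was at 126 and 169 CPM and at 127 and 224 CPM (-0.63, SE 0.16, adjusted p = 0.0047), and its call was lost without either D3 pool. The gene that rose was IFIH1, which codes for the sensor MDA5 and is named beyond the rule because its level in pool A was below 20 CPM. It was at 14.8 and 4.69 CPM in pool A and at 25.4 and 8.35 CPM in pool B (1.63, SE 0.12), higher in dividing cells of both pools.

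Of 29 CDK inhibitors and p53 targets 11 (37.9%) were called lower, against 28.4% of all genes, and 2 (6.90%) higher, against 24.1%, with a median of -0.12 beside -0.06 over all genes. TP53I3, a p53-induced oxidoreductase, was at 51.5 and 125 CPM in pool A and 54.0 and 100.0 CPM in pool B (-1.08, SE 0.09, adjusted p = 6.2e-07). BBC3, the apoptosis inducer PUMA, was at 32.1 and 55.8 CPM and at 26.4 and 39.2 CPM (-0.69, SE 0.07, adjusted p = 5.0e-06). CDKN1A, which codes for p21 and is named beyond the rule, was at 151 and 264 CPM in pool A and 128 and 184 CPM in pool B (-0.66, SE 0.07). At 10000 UMIs per cell it had a UMI in 56.6 and 59.8% of dividing and in 68.5 and 67.9% of non-dividing cells, again with no background share measured. MDM2 and BAX were not called, at 0.03 and 0.14. Of the 20 glycolysis genes 2 were called higher and 8 lower, a share in either direction close to the 52.4% of all genes, with a median of -0.13. PFKP, a phosphofructokinase, rose by 0.62 (SE 0.07, adjusted p = 1.3e-05) and ALDOC, an aldolase, fell by 0.89 (SE 0.08, adjusted p = 1.5e-06).

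**Figure D4:**
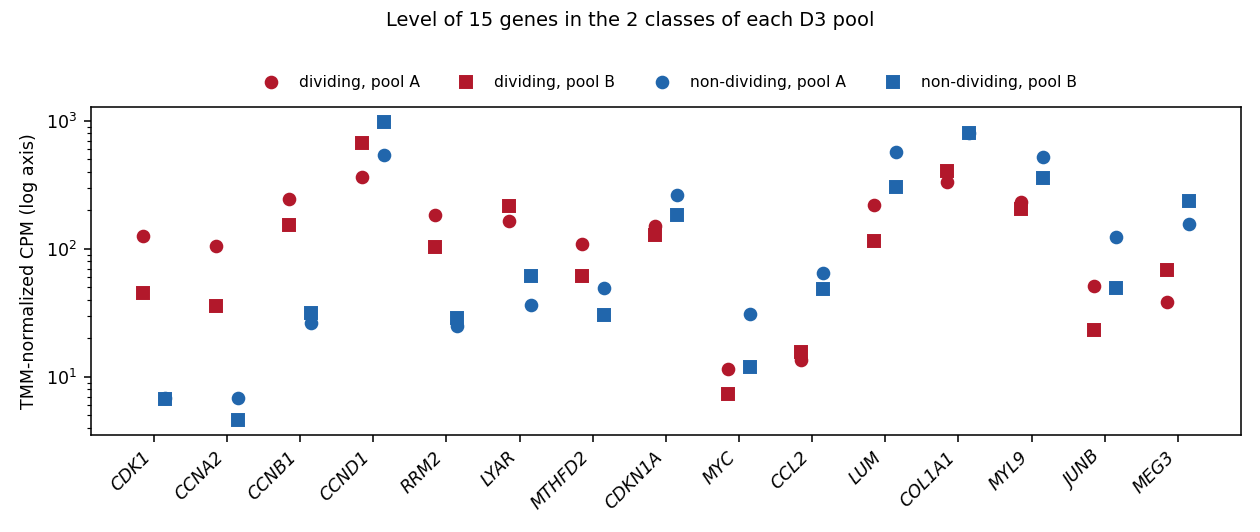
Level (TMM-scaled CPM, log axis) of 15 genes in dividing (red) and non-dividing cells (blue) of D3 pools A (circles) and B (squares). CDK1, CCNA2 and CCNB1 are higher in dividing cells of both pools, as CCL2, LUM and MEG3 are lower, and CCND1 shows pools that differ more than the classes.

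Levels of the transfected factors went in different directions. The deposited counts do not tell RNA of the cell from transfected RNA. LIN28A, an RNA-binding protein of pluripotent cells, was at 15.0 and 6.97 CPM in pool A and at 77.1 and 40.4 CPM in pool B (0.99, SE 0.16, adjusted p = 2.3e-04). SOX2 was at 3.92 and 1.32 CPM and at 14.04 and 8.30 CPM (0.97, SE 0.19, adjusted p = 0.0011). Both calls were lost with depth-matched non-dividing cells. KLF4 was at 3.75 and 8.57 CPM in pool A and 2.01 and 4.43 CPM in pool B (-1.17, SE 0.11, adjusted p = 2.8e-06). MYC was at 11.5 and 31.0 CPM in pool A and 7.39 and 12.01 CPM in pool B (-1.12, SE 0.13, adjusted p = 1.1e-05). POU5F1 did not pass, at 0.50 (SE 0.28, adjusted p = 0.135) and levels of 0.675 and 1.45 CPM in dividing cells, and NANOG was detected in too few cells to be tested. For AES, a corepressor gene, whether its counts hold transfected RNA could not be settled from the files, and the same holds for NME2. AES was at 12453 and 5501 CPM in pool A and 8946 and 5318 CPM in pool B (0.96, SE 0.13, adjusted p = 5.2e-05). On D0 it was at 137 and 146 CPM in dividing and 145 and 163 CPM in non-dividing cells. More AES than the median of the pool was found in 59.1 and 62.8% of dividing and in 31.7 and 27.4% of non-dividing cells. NME2, a near-identical copy of NME1 with uncertain counts, was not called, at 0.06 (SE 0.13).

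Among the falls outside all lists were long noncoding RNAs and genes of secreted proteins. MEG3, an imprinted long noncoding RNA (chr14:100779410-100861031, GRCh38), was at 38.5 and 156 CPM in pool A and 68.5 and 234 CPM in pool B (-1.89, SE 0.08, adjusted p = 4.8e-08). NEAT1, the scaffold RNA of paraspeckles, was at 102 and 460 CPM in pool A and 377 and 975 CPM in pool B (-1.77, SE 0.14, adjusted p = 7.3e-07). MALAT1, another nuclear RNA, is named beyond the rule with a difference of -1.52 (SE 0.05) and the levels 4701 and 14560 CPM in pool A and 9632 and 25715 CPM in pool B. These RNAs stay in the nucleus, and both classes held them at different levels in the pools, pool B being the higher. The other falls were APOD, a lipid carrier of quiescent fibroblasts, at -1.80 (SE 0.06), PNRC1, a nuclear coregulator, at -1.77 (SE 0.09), TNFRSF11B, or osteoprotegerin, at -1.62 (SE 0.09), and SERPINF1, or PEDF, at -1.61 (SE 0.09). Of the 6 tested markers of pluripotent and epithelial cells 3 were called lower (KRT19, KRT8 and KRT18), L1TD1 was called higher at 0.42 and 2 were not called. Over all genes 28.4% were called lower and 24.1% higher. The median of the 6 genes was -0.93, but 0.16 without D3 pool A and -1.36 without D3 pool B, so its direction rests on pool A. The keratin KRT19 was at 18.5 and 101 CPM in pool A and 25.8 and 70.3 CPM in pool B (-1.93, SE 0.20, adjusted p = 5.7e-06) and KRT8 was at -1.20 (SE 0.19, adjusted p = 1.6e-04), whose call was lost without D3 pool A.

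Whether division looked different on D3 was asked by comparing its class difference with that of untransfected D0 cells. On D0, 2214 cells were dividing by the same rule. The days also differ in time in the chips and in medium, which was changed to reprogramming medium from day 1. Transfection cannot be told apart from these in the contrast. Of 12047 genes, 1058 (8.78%) had a higher class difference (signed log2) on D3, 1367 (11.3%) a lower one, 2425 (20.1%) in either direction, and 44.6% had an unadjusted p under 0.05. This count rests on the fit: it was 0 by edgeR without the replicate block, where 1068 genes had an unadjusted p under 0.05, and 505 and 585 without D0 pool B and A and 1403 without D3 pool A. The mitotic genes belong to the programme by which cells were chosen on both days, so their values are a description with no test. Of the G2M list 51 of 52 had the larger difference on D0, and the median class difference was 2.93 on D3 and 4.12 on D0. Summed over the list, dividing cells held 6339 and 5750 CPM in D3 pools A and B and 7220 and 7082 CPM in those of D0, while non-dividing cells held 1569 and 2020 CPM on D3 and 1095 and 1039 CPM on D0. With depth-matched cells the median of the list in D3 against D0 was -0.88, with thinned cells -1.33, and otherwise -1.27.

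CDC20, the activator of the anaphase-promoting complex, was at 252 and 146 CPM in dividing cells of D3 and at 196 and 192 CPM in those of D0. In non-dividing cells it was at 18.1 and 28.9 CPM on D3 and at 4.69 and 4.55 CPM on D0, so that the contrast of the class differences was -2.33 (SE 0.45). SPC25, a kinetochore subunit, had a contrast of -2.76 (SE 0.48), HMMR, a spindle protein, one of -2.52 (SE 0.32), and CCNB2, cyclin B2, one of -1.90 (SE 0.26). All 4 had higher levels in non-dividing cells of D3 than of D0. All 20 kinetochore genes, all 20 kinesin and cytokinesis genes and 29 of 42 S genes had the higher signed difference on D0. For CIT, which was lower in dividing cells of D3, this means only that its signed value was higher on D0. CCNE1 had a class difference of 1.47 on D3 and -0.73 on D0.

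**Figure D5:**
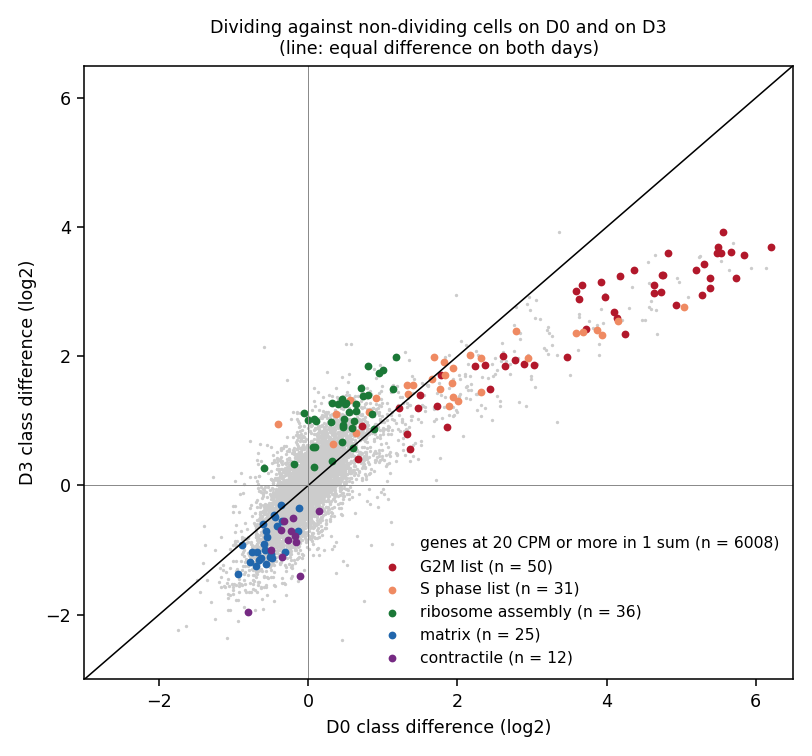
Class difference (log2 of dividing over non-dividing cells) on D0 (horizontal axis) and on D3 (vertical axis) for 6008 genes at 20 CPM or more in at least 1 of 8 class sums of both days, with 5 lists in colour and a line of equal difference. The G2M list (red, median 4.12 on D0 and 2.93 on D3) lies mostly below the line, and ribosome assembly genes (medians 0.48 and 1.03) lie mostly above it.

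Genes of ribosome assembly went the other way. Of the 40 ribosome assembly genes, chosen after their D3 values were seen, 26 were past the limits and higher on D3 than on D0 in the class difference and none lower, beside 8.78% of all genes, which is a description and not a test of the list. WDR74, a ribosome assembly factor, was at 115 and 47.0 CPM in dividing and non-dividing cells of D3 pool A and at 82.0 and 43.1 CPM in pool B. On D0 it was at 22.9 and 23.1 CPM in pool A and 21.4 and 23.1 CPM in pool B, without a difference past the limits, and the contrast was 1.17 (SE 0.11, adjusted p = 5.4e-05). SNHG7, a host gene of small nucleolar RNAs, had a class difference of 0.65 on D3 and -0.65 on D0 (contrast 1.30, SE 0.12, adjusted p = 4.7e-05). ALKBH2, a DNA repair dioxygenase, had 1.03 on D3 and -0.15 on D0 (contrast 1.18, SE 0.11, adjusted p = 5.7e-05). AES, with the same doubt about its counts, completed the 4 largest contrasts among called genes at 50 CPM or more in 1 class of D3 in both pools, at 1.09 (SE 0.19, adjusted p = 0.0013), a call lost with DESeq2, with depth-matched cells and without D3 pool A, D0 pool A or D0 pool B. MTHFD2 also had a larger difference on D3, by 0.84 (SE 0.11, adjusted p = 2.2e-04), as had IFIH1, below that level, which was 1.63 on D3 and -0.28 on D0.

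Dividing cells of D3 were also farther below non-dividing cells in genes of fibroblast function than those of D0. In the class difference, 11 of 13 contractile genes, 11 of 27 matrix genes, 8 of 10 fibroblast markers, 8 of 19 immediate early genes and 6 of 20 genes of the inflammatory list were called lower on D3 than on D0, against 11.3% of all genes. FOSL1 was among them with a class difference above 0 on both days, 0.63 on D3 and 1.41 on D0. THY1, a fibroblast marker, was called higher in this contrast, and none of the others in these lists was. The matrix list and the fibroblast markers share COL1A1, COL1A2, COL3A1, LUM and DCN, so their counts are not separate. MEG3 was at 242 and 436 CPM in dividing and non-dividing cells of D0 pool A and 239.9 and 442 CPM in pool B, a class difference of -0.86, so that the contrast was -1.02 (SE 0.11, adjusted p = 1.2e-04). CCL2 had 7.47 and 12.6 CPM on D0 in pool A and 7.57 and 11.97 CPM in pool B. In both pools its level was thus highest in the non-dividing cells of D3, and the contrast was -1.22 (SE 0.20, adjusted p = 8.4e-04). MYC had no difference on D0, at -0.08, and a contrast of -1.04 (SE 0.16, adjusted p = 7.6e-04).

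Against D5, also under transfection, few genes were called, which with 2 pools a day does not show that the days are alike. Of 12047 genes 11 (0.0913%) had a higher class difference on D3 and 3 (0.0249%) a lower one, 14 (0.116%) in all, while 2285 had an unadjusted p under 0.05 and DESeq2 called 112. The count of 14 was 0 by edgeR without D5 pool A, where 1464 genes had an unadjusted p under 0.05, was 2 without D5 pool B, 7 without D3 pool A and 38 without D3 pool B. PHF19, a Polycomb-associated protein, had a class difference of 1.16 on D3 and 2.11 on D5 (contrast -0.95, SE 0.12, adjusted p = 0.0059). SOD2, the mitochondrial superoxide dismutase, had -0.17 on D3 and -1.05 on D5 (contrast 0.88, SE 0.12, adjusted p = 0.0091). Both calls were lost with depth-matched cells, at 50 CPM, without the 5% deepest cells, with all 16 pools, with no replicate block and without D5 pool A. SOD2 was also not called without either D3 pool, nor PHF19 without D5 pool B. The median class difference of the G2M list was 3.46 on D5 against 2.93 on D3, where it was 3.43 without pool B and 2.44 without pool A, so the gap between the days rests on pool B of D3. That of the matrix list was -1.03 on D5 against -0.996 on D3. On D5 the medians were -1.075 for fibroblast markers, -0.66 for contractile genes, -0.77 for immediate early genes and -1.45 for the inflammatory list. On D3 these were -1.02, -0.78, -0.88 and -1.05. For ribosome assembly genes the median was 0.71 on D5 and 1.03 on D3. These differences from non-dividing cells were thus not particular to D3. No matrix gene was called in the contrast of the days.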

How the data were processed

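Single-cell RNA was measured in 22 libraries of 16 pools, D0 to D15. The authors deposited raw UMI counts per gene and cell, made with Cell Ranger 2.2 (the submitters' processing notes) on the GRCh38 annotation, for 33694 genes. Groups and replicates came from the labels.

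Cells with under 1000 genes or over 10% mitochondrial UMIs were left out. Doublets were not called, and leaving out the 5% of cells with the most UMIs in each pool was an alternative. UMIs were summed per pool and class. The sums of D0, D3, D5 and D7 (16 sums) were fitted together with edgeR 4.0.16 (R 4.3.3, limma 3.58.1, TMM, quasi-likelihood test, Benjamini-Hochberg adjustment). The model held class by day and the pool as a block, since both classes of a pool come from the same captured cells. D5 pools A and B and D7 pool B were 2 libraries each, which were added together before the fit. Genes detected in at least 5% of kept cells of D0 to D7 were tested. On simulated data for the D3 comparison (12049 genes), 38 of 50 genes changed 1.5-fold and 49 of 50 changed 2-fold were recovered, and 3 unchanged genes were called. In the contrast of D3 with D0, 26 of 50 genes changed 1.5-fold and 45 of 50 changed 2-fold were recovered. Changed genes had a mean of 50 UMIs or more per sum, and all others had no class difference. In the data 52.4% of genes were called in the D3 comparison. The simulation therefore does not measure errors against such a background, or for low genes. D3 sums held 21176850 to 83077508 UMIs.

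The text names the 2 called genes with the largest D3 difference per list at 20 CPM or more, all transfected factors, the 6 largest rises and falls outside the lists at 50 CPM, and the 4 largest and lowest contrasts between days among called genes at 50 CPM or more in 1 class of D3 in both pools. Members and lists were chosen with earlier results of these data known. Alternatives were DESeq2 1.42.0, other filters, class limits, depths, scalings and fits. Python 3.11.15 with numpy 2.4.6, scipy 1.17.1, pandas 2.3.3 and matplotlib 3.10.9 was used for the rest.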

Additional observations from a re-analysis of the deposited data

Results flagged for a closer look

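The class difference of D3 was set against that of D0, and each contrast is given as a log2 value of D3 minus D0. Genes of replication and mitosis belong to the programme by which the cells were chosen, so their contrasts are a description with no test. The contrast was -2.27 for RAD51AP1, -1.46 for CLSPN, -1.80 for GTSE1, -1.71 for MYBL2, -1.89 for CENPA, -2.28 for NUF2, -2.07 for NCAPH, -2.30 for SGOL1, -1.23 for RRM2, -1.09 for ASPM, -2.76 for SPC25, -2.52 for HMMR, -2.33 for CDC20 and -1.90 for CCNB2.

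For genes outside that programme the class differences of the days differed by a test of the difference itself (edgeR's quasi-likelihood test, adjusted p below 0.01). Among genes lower in dividing cells of D3 the contrast was -1.04 for MYC, -1.22 for CCL2, -0.44 for LUM, -0.55 for COL5A1, -0.75 for TGFB1I1, -0.49 for MYL9, -0.88 for PDGFRB, -1.02 for MEG3, -0.50 for APOD, -0.80 for PNRC1, -0.82 for NEAT1, -0.91 for TNFRSF11B and -0.60 for SERPINF1. Among genes higher in dividing cells of D3 it was 1.09 for AES, 0.84 for MTHFD2, 0.82 for LYAR, 1.30 for SNHG7, 1.18 for ALKBH2, 1.17 for WDR74 and -1.10 for PHF19. Against D5 the contrast was 0.88 for SOD2 and -0.95 for PHF19. Neither call was kept with depth-matched cells, at 50 CPM, with all 16 pools or without the 5% deepest cells.

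The D3 cells between the classes entered no comparison. Of these, 47.0% in pool A and 21.7% in pool B were above both the S and the G2M limit, against 13.2 and 14.8% on D0. Some cells above both limits therefore lay below 100 CPM of MKI67 and TOP2A, as a larger share in pool A.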

How the results depend on the processing

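The 6317 genes called between the classes of D3 ranged from 4838 to 8050 under the other settings and from 4503 to 5536 with 1 pool of D3 left out, but were 1145 with no replicate block. With no filter on detection 60.0% of the calls were higher, against 45.9% as reported and 45.1 to 54.2% in the other settings. For D3 against D0 the count of 2425 became 4169 when called at an adjusted p of 0.05 whatever the fold, 1087 with all 16 pools and 0 by edgeR with no replicate block (1068 genes at an unadjusted p under 0.05), and lay between 505 and 2033 with 1 pool left out. With no filter 66.7% of its calls were higher, against 43.6% as reported. For D3 against D5 the count of 14 became 242 when called that way, 112 with DESeq2, 467 with no filter, 1 with all 16 pools, 55 with depth-matched cells, 61 with thinned cells, 8 at 200 CPM and 7 with cells of 2000 or more genes and 5% or less mitochondrial UMIs. It was 0 by edgeR with no replicate block, at 50 CPM and without the 5% deepest cells, where 206, 1975 and 2160 genes had an unadjusted p under 0.05, and lay between 0 and 38 with 1 pool left out. The cause of these shifts was not tested. Share of dividing cells on D3, as a mean of both pools, was 58.0% at 50 CPM and 25.03% at 200 CPM, and 34.9 to 50.4% with 1 pool left out. Of 64 named results of D3, 58 kept their call in every setting other than no replicate block, as did 5 of 8 for D3 against D0 (not AES, SPC25 and CDC20) and 0 of 2 for D3 against D5. Many of the named results of D3, and SPC25, HMMR, CDC20 and CCNB2 in D3 against D0, are of genes of the cycle lists. The choice of the cells entails their class difference, so their kept calls are a description and no sign of a robust result. The result NME2, D3 dividing against non-dividing cells, which was not called, turned from 0.06 to -0.0464 with depth-matched cells, and lay between -0.15 and 0.18 with 1 D3 pool left out. Depth limits low genes, and 2 pools per day limit every contrast.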
